A study of Danio rerio with 4 samples.

Results

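The genes described here are the proneural genes neurog1, ascl1a, ascl1b and neurod4, the early neuron gene elavl3, the ventral neural tube gene olig2, and the paired pax6 genes pax6a and pax6b. They were taken from the deposited table by these 8 symbols, with no threshold on their values. Genes and lists were, however, chosen with earlier results of these data known. The symbols found 9 of the table's 20390 rows, because ascl1b stands on 2 rows, and all 9 rows passed the filter on low values described below. In Cre-injected embryos, transcripts of neurog1, ascl1a and pax6a were lower than in uninjected embryos. No such difference passed the test for ascl1b, neurod4, elavl3, olig2 or pax6b.

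Proneural genes encode basic helix-loop-helix (bHLH) transcription factors that turn neural progenitors into neurons. They pair with broadly expressed E proteins on E-box sequences, raise Delta ligands in the same cell, and are in turn held down in neighbouring cells by Notch signalling through Hairy-type repressors. In the early zebrafish neural plate neurog1 marks the clusters where primary neurons and cranial ganglion cells are born, and elavl3, which encodes the RNA-binding protein HuC, is switched on as neurons form. Pax6 proteins are paired-domain and homeodomain transcription factors of the eye field, forebrain and neural tube, and zebrafish carry the duplicates pax6a and pax6b.

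All embryos carried the transgene allele bns298, made of the heat-inducible promoter of hsp70l, a loxP-flanked STOP cassette, and then npas4l, GGGGGLSRS, P2A and mCherry; npas4l is a bHLH-PAS gene needed for blood and vessel formation. Whole-embryo RNA was sequenced in 2 Cre-injected libraries, Cre being the recombinase that excises the cassette, and in 2 uninjected ones. Growth at 28 °C, a heat shock of 1 h at 37 °C and collection of 6-somite embryos were common to both groups. The wild-type background, the number of embryos per library and whether the groups shared a clutch are not given in the sources used here. No injected embryos without the transgene were analysed here, so the effects of npas4l, of Cre and of the injection itself cannot be told apart.

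Values are the authors' rounded, normalised read counts per gene, called normalised reads below. They summed to 8933474 and 9861419 in the Cre-injected and to 9093935 and 9479827 in the uninjected libraries, and mitochondrial genes held 12.6% and 16.9% of them in the Cre-injected and 13% and 17.4% in the uninjected libraries, more in replicate 2 of both groups. Transcripts of npas4l stood at 710 and 808 normalised reads in Cre-injected and at 370 and 279 in uninjected libraries, with endogenous gene and transgene not separated. Markers of neural plate, neural crest, somite, notochord, epidermis, blood and endothelium, endoderm, hatching gland and germ cells were all above 0 in at least 1 library. That bar is low and does not show how far each tissue was represented. Differences were tested with limma on log2(value + 1) over the 16754 genes that reach 10 in at least 2 libraries. A gene was called at a Benjamini-Hochberg adjusted p under 0.05, and fold changes are Cre-injected over uninjected on that log2 scale, which understates changes of low genes. The heat-shock gene hsp70l had 66 and 280 normalised reads in Cre-injected and 33 and 26 in uninjected libraries. It was called higher (log2 fold change 2.18 ± 0.58 SE, limma adjusted p = 0.0494), with a wide spread between the Cre-injected libraries. The cause of this was not tested. Intervals on ratios of summed reads are 95% exact intervals that treat the values as counts and cover counting error only.

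The gene neurog1 (ENSDARG00000056130; chromosome 14, 26703331 to 26704829, minus strand, GRCz11) encodes Neurogenin-1, a determination factor for primary and sensory neurons. It had 209 and 240 normalised reads in the Cre-injected libraries, against 454 and 342 in the uninjected libraries. Both Cre-injected values lay below both uninjected ones, and the uninjected replicates differed more from each other than the Cre-injected ones. The means were 224.5 ± 21.9 with Cre and 398 ± 79.2 without (SD, n = 2 each). The fold change on the log2 scale was -0.81 ± 0.17 (SE; limma adjusted p = 0.00962), a fold of 0.569. When uninjected replicate 1, the highest value, was left out, the log2 fold change was -0.61 and the call was lost (adjusted p = 0.198).

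Transcripts of ascl1a (ENSDARG00000038386; chromosome 4, 17417111 to 17419193, plus strand), which encodes an achaete-scute factor for forebrain, hindbrain and other neural precursors, were few. They numbered 21 and 18 normalised reads in Cre-injected libraries, against 47 and 51 in uninjected libraries. The groups were well apart and replicates close, with means of 19.5 ± 2.12 and 49 ± 2.83 (SD, n = 2 each). Its log2 fold change was the largest of the 9 rows at -1.29 ± 0.34 (SE; limma adjusted p = 0.0295), and the ratio of summed reads was 0.398 (interval 0.267 to 0.582). With uninjected replicate 1 or 2 left out, the log2 fold change was -1.35 or -1.23, and the call was lost (adjusted p = 0.18 and 0.223).

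Its duplicate ascl1b (ENSDARG00000101628; chromosome 7, 49715750 to 49717195, plus strand) had 35 and 44 normalised reads in Cre-injected and 38 and 53 in uninjected libraries. These ranges overlapped. The log2 fold change was -0.19 ± 0.32 (SE, limma adjusted p = 0.739). Its 95% interval of -0.88 to 0.51 still spans a sizeable fall and overlaps that of ascl1a, which runs from -2.03 to -0.54. Another row under the same symbol (ENSDARG00000009702; 49695904 to 49715154, plus strand) ends 595 bases before it and is named si:ch211-210p4.6 in a table of gene names. That row stood at 20 and 27 normalised reads in Cre-injected and 23 and 18 in uninjected libraries, and its groups overlapped too (log2 fold change 0.18 ± 0.41 SE; limma adjusted p = 0.806). How reads between these adjoining rows were assigned is not known.

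**Figure D1:**
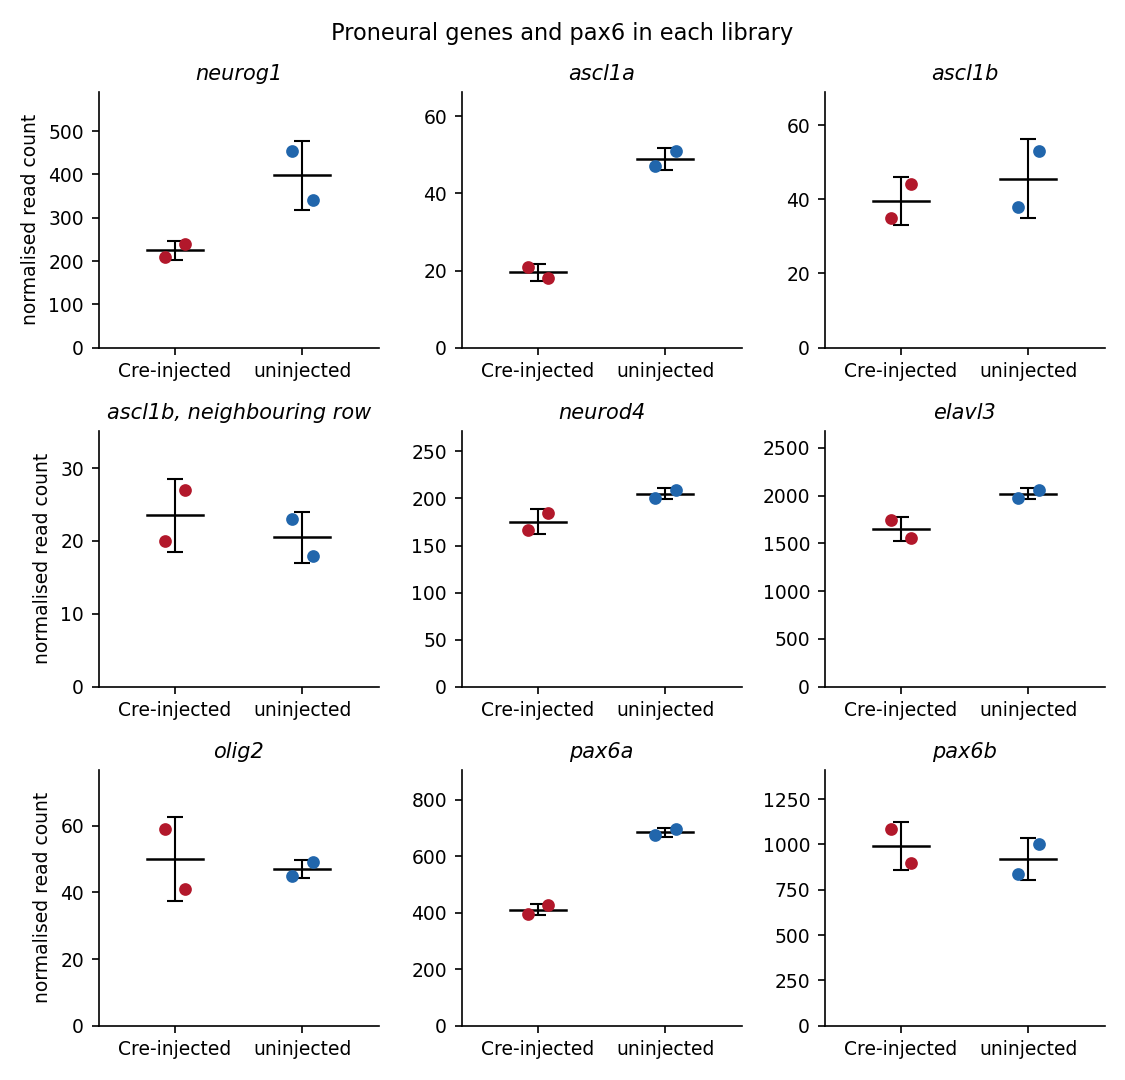
Normalised read counts (linear vertical axes from 0, scaled per gene) of the 9 rows in the 2 Cre-injected (red, left) and 2 uninjected (blue, right) libraries. Points are libraries, horizontal lines are means and bars are SD; the groups of neurog1, ascl1a, neurod4, elavl3 and pax6a do not overlap.

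Neither neurod4 nor elavl3, which act later in the neuronal pathway, passed the test. The bHLH gene neurod4 (ENSDARG00000003469; chromosome 23, 28343988 to 28347039, minus strand), which acts downstream of determination factors during neuronal differentiation, had 166 and 185 normalised reads in Cre-injected libraries, against 201 and 209 in uninjected libraries. The groups did not overlap, yet the log2 fold change of -0.22 ± 0.17 (SE) missed the threshold (limma adjusted p = 0.417), with a 95% interval of -0.59 to 0.14.

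The gene elavl3 (ENSDARG00000014420; chromosome 3, 46800190 to 46818001, minus strand) was measured on the most reads. It had 1742 and 1560 normalised reads in Cre-injected and 1979 and 2060 in uninjected libraries, again without overlap. Its means were 1651 ± 128.7 and 2019.5 ± 57.3 (SD, n = 2 each), and the log2 fold change of -0.29 ± 0.11 (SE) was not called (limma adjusted p = 0.108). Its 95% interval of -0.53 to -0.05 overlaps that of neurog1, which runs from -1.19 to -0.44. Without Cre-injected replicate 1 elavl3 was called (-0.37; adjusted p = 0.00133).

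The motor neuron and oligodendrocyte precursor gene olig2 (ENSDARG00000040946; chromosome 9, 32751428 to 32753535, minus strand) had 59 and 41 normalised reads in Cre-injected libraries, against 45 and 49 in uninjected libraries. Both uninjected values lay between the Cre-injected ones. The log2 fold change was 0.07 ± 0.30 (SE; limma adjusted p = 0.911), with an interval of -0.59 to 0.72.

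The paired-box gene pax6a (ENSDARG00000103379; chromosome 25, 15029041 to 15049781, minus strand) gave the smallest p of the 9 rows. It had 397 and 426 normalised reads in Cre-injected libraries, against 674 and 697 in uninjected libraries. Replicates were close and the groups far apart, with means of 411.5 ± 20.5 and 685.5 ± 16.3 (SD, n = 2 each). The log2 fold change was -0.74 ± 0.13 (SE; limma adjusted p = 0.00331), a fold of 0.601. Dropping uninjected replicate 1 or 2 hardly moved the log2 fold change (-0.76 and -0.71) but ended the call (adjusted p = 0.0708 and 0.0943).

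Its duplicate pax6b (ENSDARG00000045936; chromosome 7, 15871156 to 15900606, plus strand) had 1085 and 897 normalised reads in Cre-injected and 838 and 1000 in uninjected libraries. These ranges overlapped, and the means were 991 ± 132.9 and 919 ± 114.6 (SD, n = 2 each). The log2 fold change was 0.11 ± 0.14 (SE; limma adjusted p = 0.646). Its 95% interval of -0.19 to 0.40 does not reach that of pax6a, which runs from -1.01 to -0.46.

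**Figure D2:**
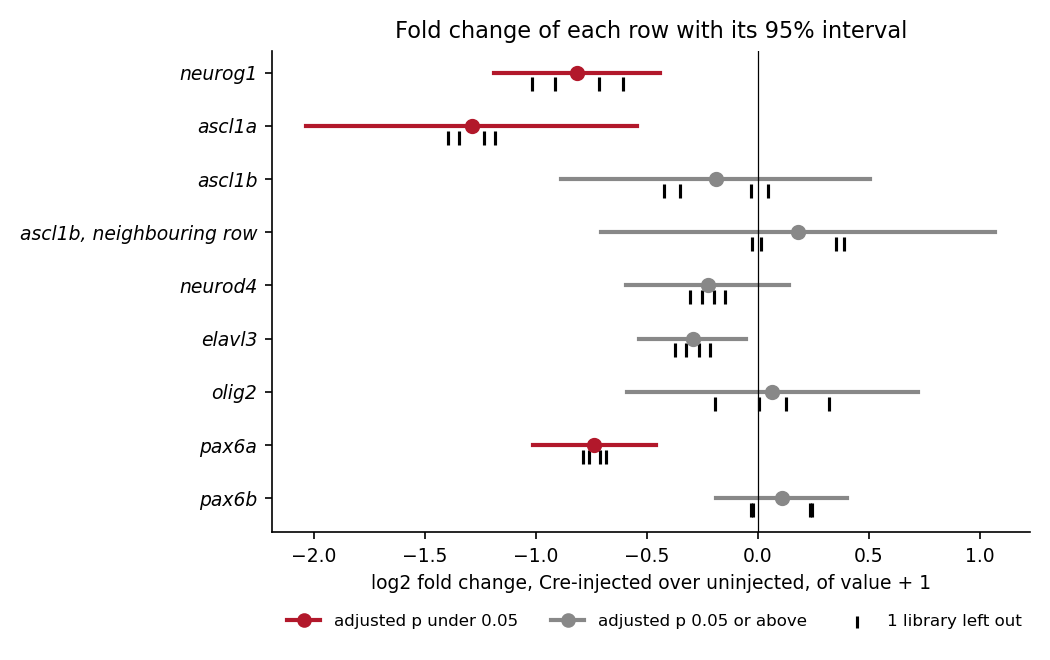
Log2 fold change of value + 1, Cre-injected over uninjected, for each row (horizontal axis; points) with its 95% interval from limma (lines). Red rows passed an adjusted p of 0.05, and ticks below each line are the estimates with 1 library left out. Each such estimate stays below 0 for neurog1, ascl1a and pax6a, and also for neurod4 and elavl3, which were not called.

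Of the 9 rows, 3 were called lower and 0 higher. Over all tested genes 6.19% were called lower and 6.35% higher. Without uninjected replicate 1 or 2, 0 and 1 (neurog1) of the rows were called lower, against 1.3% and 1.25% of all genes. The groups of 5 rows lay fully below the uninjected ones and of 0 rows above, where 28.8% and 28.0% of all tested genes did so. The median log2 fold change was -0.22 over the 9 rows and 0.00 over all genes tested. In RNA from whole embryos, fewer cells of a type and less RNA per cell cannot be told apart. Summed markers of the neural plate (5 of 5 genes listed, sox2, sox3, sox19a, zic2a and otx2b, none at 0) came to 3555 and 3515 normalised reads in Cre-injected, below the 4382 and 4493 in uninjected libraries; 2 of the 5, sox3 and sox19a, were called lower. Their part in the falls of neurog1, ascl1a and pax6a was not tested.

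Within each duplicate pair the a copy made up less of the pair's transcripts in Cre-injected embryos. The log2 ratio of pax6a to pax6b was -1.45 and -1.07 in the Cre-injected libraries, against -0.31 and -0.52 in the uninjected libraries, a difference of -0.84. For ascl1a over ascl1b it was -0.71 and -1.24 in Cre-injected and 0.30 and -0.05 in uninjected libraries, a difference of -1.10. Neither ratio overlapped between groups. Each ratio holds a gene already called lower above, so this is not separate support. The two-sided exact permutation test gave p = 0.333 for both, the smallest p that it can give with 2 against 2 libraries, so it could not have passed a threshold of 0.05. Summed reads of pax6a and pax6b were 1482 and 1323 in Cre-injected, against 1512 and 1697 in uninjected libraries. Transcript lengths were not used here, so levels are compared only within a gene, and a ratio between duplicates only between libraries.

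Calls among the genes beside these on the chromosome were counted as well. The nearest listed genes on either side of the 9 rows came to 16 genes other than the rows themselves, all of them tested. Of these, 0 were called higher and 1 lower, beside the 6.35% and 6.19% of all genes, and none overlapped a row. The gene called lower was zgc:153867, which starts 27418 bases beyond the end of neurod4. It had 1137 and 1268 normalised reads in Cre-injected and 1820 and 1746 in uninjected libraries (log2 fold change -0.57 ± 0.11 SE; limma adjusted p = 0.00685), and was named after its values were seen. Its call, too, was lost without uninjected replicate 1 or 2 (-0.54 and -0.60; adjusted p = 0.176 and 0.132).

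Around neurog1, arap3 and polr2gl had log2 fold changes of 0.15 ± 0.13 and -0.16 ± 0.12 (SE), with adjusted p of 0.493 and 0.422. Around ascl1a, pah and recql stood at 0.52 ± 0.40 and 0.18 ± 0.17 (SE; limma adjusted p = 0.428 and 0.529). Beside pax6a, dnajc24 was at 0.07 ± 0.34. On its other side wt1a, a Wilms tumour factor gene of the kidney primordium, had 32 and 25 normalised reads in Cre-injected and 49 and 65 in uninjected libraries, which missed the threshold (-0.97 ± 0.32 SE; limma adjusted p = 0.069). The pax6b neighbours rcn1 and elp4 were at -0.09 ± 0.12 and 0.16 ± 0.25 (SE; limma adjusted p = 0.67 and 0.707). Beside ascl1b, fjx1 had 19 normalised reads in each Cre-injected library and 49 and 35 in uninjected libraries. It missed the threshold too (-1.085 ± 0.365 SE, limma adjusted p = 0.0733).

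**Figure D3:**
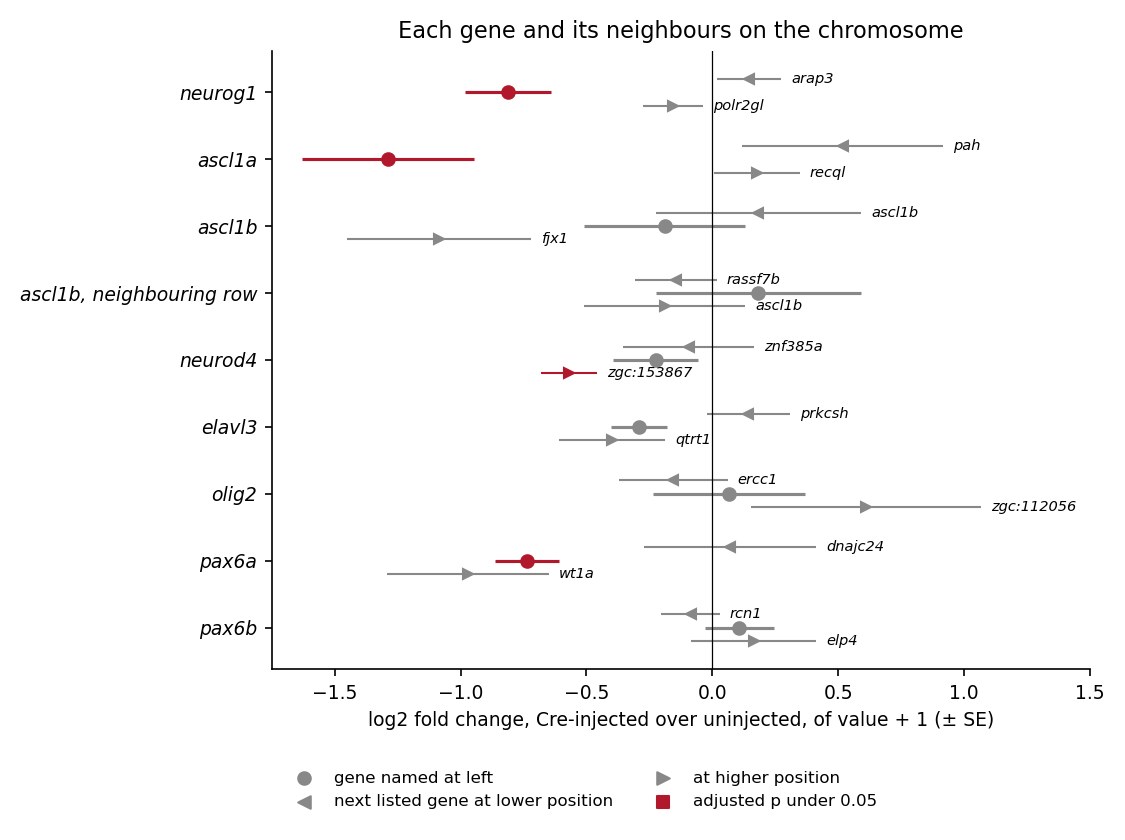
Log2 fold change of value + 1, Cre-injected over uninjected (horizontal axis, with SE), for each of the 9 rows (circles) and the nearest listed gene at lower (left triangles) and higher position (right triangles). Red marks an adjusted p under 0.05, which among the neighbours only zgc:153867 reached.

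Patterns over the 4 libraries were compared by the distance between log2(value + 1) profiles, each centred on its mean. The candidates were 11797 tested and named genes above a low minimum mean. The profile nearest to pax6a was that of lipia (74 and 81 normalised reads with Cre, 128 and 130 without; distance 0.0275), followed by eml3 and fdxr (0.0307 and 0.0488). Of these, fdxr was not called lower (limma adjusted p = 0.071). Nearest to ascl1a were arhgef10lb and the secreted Wnt antagonist gene sfrp5 (distances 0.0712 and 0.0729), then negr1 (0.1). Transcripts of sfrp5 numbered 208 and 186 normalised reads with Cre, against 439 and 490 without. Nearest to neurog1 was kiss1 (16 and 19 with Cre, 36 and 27 without; 0.027), then stx10 and sgce (0.0873 and 0.0942). None of them was called (limma adjusted p = 0.202, 0.164 and 0.16). The SE of the log2 fold change of kiss1 was 0.39, well above its distance. A small distance over 4 libraries is therefore no evidence of a shared response. Within a distance of 0.1 lay 21 genes for pax6a, 4 for neurog1 and 2 for ascl1a.

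Among other neural bHLH genes, 8 of 18 listed symbols were in the table and 7 tested, of which 2 were called lower and 0 higher. Over all tested genes 6.19% were called lower and 6.35% higher, and these shares stand beside the counts of every list below. The rhombic lip gene atoh1a had 8 and 3 normalised reads in Cre-injected and 27 and 26 in uninjected libraries (log2 fold change -2.20 ± 0.57 SE, limma adjusted p = 0.0278). It passed the filter on low values only through the uninjected libraries, so it could appear only as lower. The dorsal progenitor gene olig3, listed as FQ311955.1, had 100 and 129 in Cre-injected and 211 in each uninjected library (-0.89 ± 0.19 SE; limma adjusted p = 0.011). Both sets of groups were apart. Another relative, olig4, had 46 and 43 with Cre and 86 and 75 without and missed the threshold (limma adjusted p = 0.0545), though it was called without Cre-injected replicate 1 (0.0341). Over the fits that leave out a library, the median log2 fold change of the list ran from -0.89 to -0.45. The differentiation gene neurod1 stood at 165 and 201 with Cre and 159 and 167 without (limma adjusted p = 0.604). Leaving out uninjected replicate 1 or 2 ended the calls of atoh1a (-2.17 and -2.22; adjusted p = 0.225 and 0.202) and olig3 (-0.89 in each; adjusted p = 0.114 and 0.117).

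Of 35 tested genes of neuronal differentiation other than elavl3, 3 were called lower and 1 higher, and 31 in neither direction. The median log2 fold change was -0.51. A filter of at least 50 left 19 genes of the list, with a median of -0.32. Over the fits that leave out a library, the list median ran from -0.55 to -0.33. The tubulin gene tubb5 had 417 and 474 normalised reads in Cre-injected and 714 and 763 in uninjected libraries (-0.73 ± 0.13 SE; limma adjusted p = 0.00396). The neuronal repressor gene scrt2 fell by 0.68 on the log2 scale (limma adjusted p = 0.0389). The homeobox gene isl2a of primary motor and sensory neurons fell by 0.60 (limma adjusted p = 0.0467), with 153 in each Cre-injected library and 208 and 259 in the uninjected ones; it was named after its values were seen. The call of isl2a was lost under library-total and upper-quartile scaling and with non-robust shrinkage (adjusted p = 0.0511, 0.0513 and 0.0621). The homeobox gene lhx1a, which also marks intermediate mesoderm, rose, with 228 and 205 in Cre-injected and 114 and 94 in uninjected libraries (1.06 ± 0.19 SE; limma adjusted p = 0.0042). Without uninjected replicate 1 the calls of tubb5 (-0.78), scrt2 (-0.74) and isl2a (-0.76) were lost. Without uninjected replicate 2 those of tubb5 (-0.68), scrt2 (-0.62), isl2a (-0.44) and lhx1a (0.92) were lost.

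In the Notch list, 2 of 37 tested genes were called lower and 1 higher, no more than the 6.19% and 6.35% of all tested genes. With a library left out, the median log2 fold change of the list ran from -0.25 to -0.08. The receptor gene notch1a rose, with 2825 and 2291 normalised reads in Cre-injected and 1499 and 1476 in uninjected libraries (log2 fold change 0.77 ± 0.12 SE; limma adjusted p = 0.00189). The Notch feedback gene nrarpb (272 and 226 with Cre, 406 and 419 without) and the Hairy-related gene her8a (455 and 383 with Cre, 655 and 638 without) fell by 0.73 and 0.63 on the log2 scale. Their limma adjusted p was 0.00891 and 0.0109. The Delta ligand genes dla, dlb and dld, which proneural factors raise, had log2 fold changes of -0.26, -0.42 and -0.14 (limma adjusted p = 0.207, 0.126 and 0.451); they were named after their values were seen. The her4 genes stand in near-identical copies, so reads may be split among them. Leaving out either uninjected library (replicate 1, then 2) ended the calls of notch1a (0.79 and 0.76), nrarpb (-0.75 and -0.71) and her8a (-0.61 and -0.65).

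Among E proteins and inhibitors of proneural factors, 1 of 16 tested genes was called, the Hairy-type repressor gene her11. It rose to 147 and 161 normalised reads in Cre-injected libraries, against 92 and 91 in uninjected libraries (log2 fold change 0.74 ± 0.20 SE; limma adjusted p = 0.0294). Its call was lost without uninjected replicate 1 or 2 (0.75 and 0.74). With a library left out, the list median ran from -0.20 to 0.03. The Id gene id1, whose protein binds E proteins, had 515 and 402 with Cre and 595 and 649 without (limma adjusted p = 0.0671). The E-protein gene tcf3a had 1459 and 1318 with Cre and 984 and 1182 without (limma adjusted p = 0.0799). Both were called without Cre-injected replicate 1 (-0.63 and 0.29), and tcf3a also without Cre-injected replicate 2 (0.44).

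Of 16 tested SoxB, SoxC and other progenitor genes, 4 were called lower and 1 higher. With a library left out, the median log2 fold change of the list ran from -0.34 to -0.21. The SoxB2 genes sox21b and sox21a fell, by 1.00 and 0.83 on the log2 scale (limma adjusted p = 0.00709 and 0.0345). The SoxB1 gene sox19a, a general neural plate gene, had 1337 and 1388 normalised reads in Cre-injected and 1831 and 1802 in uninjected libraries (-0.41 ± 0.11 SE; limma adjusted p = 0.0263). Calls lost without uninjected replicate 1 or 2 were those of sox21b (-1.04 and -0.96), sox21a (-0.72 and -0.93) and sox19a (-0.40 and -0.43), and sox21a also lost its call without Cre-injected replicate 1 (-0.56) and with non-robust shrinkage (adjusted p = 0.0552). The remaining calls, named after their values were seen, were the SoxB1 gene sox3, which fell by 0.41 on the log2 scale (limma adjusted p = 0.0353), and gmnn, for the replication inhibitor Geminin, which rose by 0.74 (0.0402). The call of sox3 was lost without uninjected replicate 1 or 2 (-0.40 and -0.43) and under library-total scaling (adjusted p = 0.063). That of gmnn was lost without either uninjected library (0.65 and 0.83), without Cre-injected replicate 2 (0.35) and with non-robust shrinkage (adjusted p = 0.073).

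The eye field and forebrain regulators, the group that pax6a and pax6b belong to by their known expression, held the most calls of the lists. Of 34 tested genes 13 were called lower, 0 higher and 21 in neither direction, with a median log2 fold change of -0.71. Over all tested genes 6.19% were called lower and 6.35% higher. The median depended on low genes: a filter of at least 50 left 25 genes of the list, with a median of -0.40. The list was chosen with earlier results of these data known, and pax6b itself was not called (limma adjusted p = 0.646). Any link to the fall of pax6a was not tested. The retinal homeobox gene rx1 had 17 and 22 normalised reads in Cre-injected and 141 and 159 in uninjected libraries (-2.89 ± 0.28 SE; limma adjusted p = 7.08e-05). The eye gene mab21l2 had 119 and 131 with Cre and 283 and 271 without (-1.14 ± 0.17 SE; limma adjusted p = 0.0013). In both the groups were far apart. A further 10, named after their values were seen, were six3a, vsx1, lhx2b, emx2, vax1, meis2a, fezf1, foxd1, arxa and nkx2.1. Their log2 fold changes ran from -3.36 for vsx1 to -0.75 for lhx2b. Transcripts of vsx1 numbered 1 and 0 normalised reads in Cre-injected and 13 and 14 in uninjected libraries, a ratio of summed reads of 0.037 (interval 0.000905 to 0.225). This gene passed the filter on low values only through the uninjected libraries, so it could appear only as lower. Transcripts of lhx2b numbered 160 and 154 with Cre and 232 and 301 without.

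Not every eye field gene was lower. The early eye field gene rx3 had 111 and 70 normalised reads in Cre-injected and 70 and 73 in uninjected libraries (limma adjusted p = 0.495), and the forebrain and midbrain gene otx2b had 258 and 191 with Cre and 229 and 221 without (limma adjusted p = 0.958); both were named after their values were seen. The calls of rx1 and mab21l2 held whichever library was left out. Over the fits that leave out a library, the median log2 fold change of the list ran from -0.91 to -0.53. Each of the further 10 lost its call without at least 1 uninjected library; vsx1 and lhx2b lost it without replicate 1 (-3.41 and -0.93) and without replicate 2 (-3.31 and -0.56). The call of nkx2.1 was also lost without Cre-injected replicate 2 (-0.91), under upper-quartile scaling and with non-robust shrinkage (adjusted p = 0.117, 0.051 and 0.065).

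**Figure D4:**
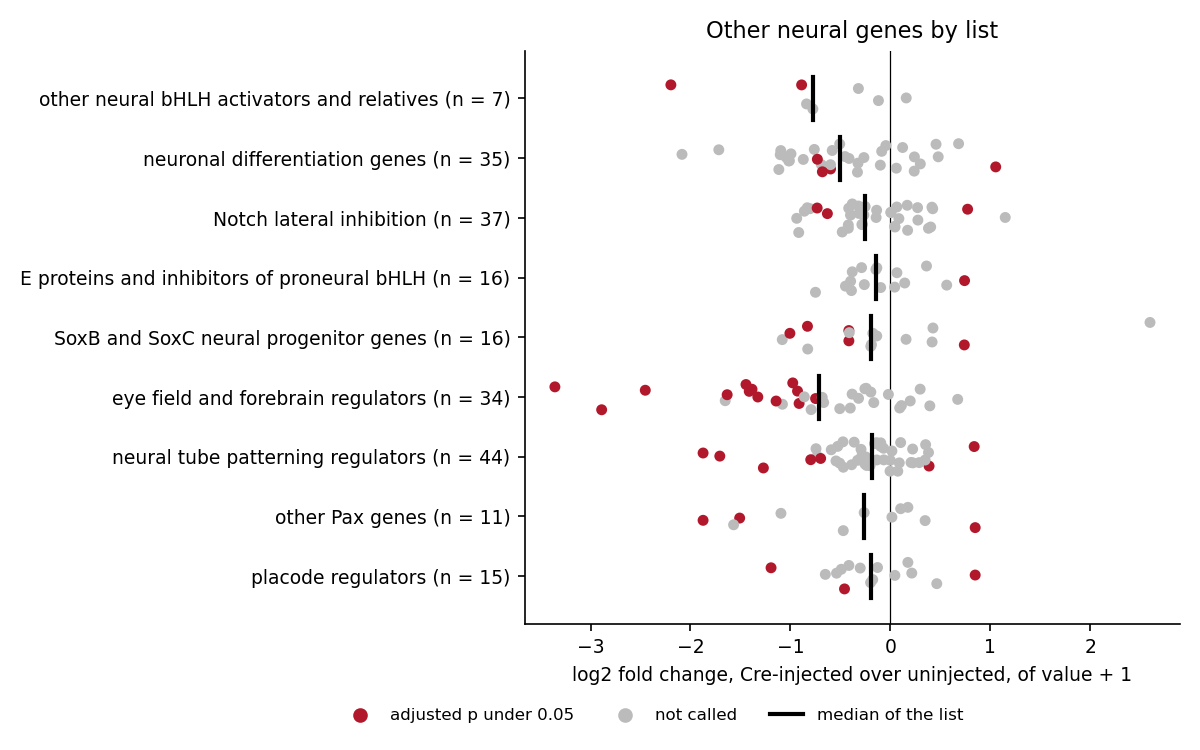
Log2 fold change of value + 1, Cre-injected over uninjected (horizontal axis), of tested genes in 9 lists of neural genes (rows, the number tested in brackets), without the 8 genes of interest. Each point is a gene, red at an adjusted p under 0.05, and black bars are list medians; eye field and forebrain regulators have 13 red points of 34.

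Of 44 tested neural tube patterning genes 5 were called lower and 2 higher, beside 6.19% and 6.35% of all tested genes. With a library left out, the median log2 fold change of this list ran from -0.22 to -0.07. The ventral progenitor gene nkx6.2 had 110 and 104 normalised reads in Cre-injected and 189 and 184 in uninjected libraries (log2 fold change -0.80 ± 0.18 SE; limma adjusted p = 0.0152). The dorsal gene pax7a had 8 and 10 with Cre and 37 and 34 without (-1.87 ± 0.43 SE, limma adjusted p = 0.0151). Only 1 of its Cre-injected values reached 10, so it passed the filter on low values through the uninjected libraries, where it was high. The Iroquois gene irx7 rose, with 600 and 1007 with Cre and 443 and 425 without (0.84 ± 0.20 SE, limma adjusted p = 0.0176). Calls lost without uninjected replicate 1 or 2 were those of nkx6.2 (-0.78 and -0.82), pax7a (-1.81 and -1.93) and irx7 (0.87 and 0.81). The other lower genes, named after their values were seen, were dbx1b (-1.27; limma adjusted p = 0.0283), gsx1 (-1.71; 0.0186) and en2b (-0.70; 0.0357), and the other higher one was irx1b (0.39; 0.0436). Without uninjected replicate 1 or 2 the calls of dbx1b (-1.38 and -1.17), gsx1 (-1.69 and -1.73), en2b (-0.64 and -0.75) and irx1b (0.36 and 0.41) were lost, as was that of dbx1b without Cre-injected replicate 2 (-0.90) and that of en2b without Cre-injected replicate 1 (-0.38). Non-robust shrinkage ended the calls of en2b and irx1b (adjusted p = 0.0649 and 0.0552), and irx1b was also lost under library-total scaling (0.101), under equal totals without mitochondrial genes (0.0685) and with the replicate block (0.0611).

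Of 11 tested Pax genes other than pax6, 2 were lower, pax7a and pax5, and 1 higher. With a library left out, the list median ran from -0.40 to -0.12. A filter of at least 50 left 5 of these Pax genes, with 0 lower, 1 higher and a median of 0.18. The midbrain-hindbrain gene pax5 fell by 1.51 and pax8, of the otic placode and kidney primordium, rose by 0.85 on the log2 scale (limma adjusted p = 0.0221 and 0.0135). Reads of pax5 were few, at 15 and 23 in Cre-injected and 68 and 44 in uninjected libraries. Among 15 placode regulators 2 were lower and 1, pax8, higher. With a library left out, the median of this list ran from -0.26 to -0.15. The placode genes dlx4b and tfap2a fell by 1.19 and 0.46 on the log2 scale (limma adjusted p = 0.0339 and 0.0232). Leaving out uninjected replicate 1 or 2 ended the calls of pax5 (-1.20 and -1.82), pax8 (0.84 and 0.86), dlx4b (-1.37 and -1.02) and tfap2a (-0.49 and -0.43), and dlx4b was also not called without Cre-injected replicate 2 (-0.96).

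Marker genes of other tissues differed between the groups in some lists and not in others. Summed reads of 5 epidermal markers were 107887 and 137795 in Cre-injected and 191913 and 180167 in uninjected libraries, and 2 of the 5, krt4 and tp63, were called lower. Those of 6 neural crest markers were 3463 and 3575 with Cre and 4370 and 4358 without, with 3, sox10, snai1b and tfap2a, called lower. Hatching gland markers summed to 1191 and 920 with Cre and 1753 and 1708 without, with 2 of 3, ctslb and he1.1, called lower. These markers and those called below were named after their values were seen. Without uninjected replicate 1 or 2 the calls of krt4, tp63, sox10, snai1b, tfap2a and ctslb were lost. That of he1.1 was lost without uninjected replicate 2 (-1.09). Under library-total scaling sox10 and snai1b were not called either (limma adjusted p = 0.057 and 0.0565). Non-robust shrinkage and the replicate block ended the call of snai1b as well (limma adjusted p = 0.0662 and 0.0506).

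Endoderm markers summed to 905 and 912 with Cre and 652 and 655 without, with 1 of 4, sox32, called higher. The log2 fold change of sox32 was 4.32 with all libraries (limma adjusted p = 0.00916). It was poorly fixed, from 3.09 to 5.55 with a library left out. This gene passed the filter on low values only through the Cre-injected libraries, so it could appear only as higher. The call of sox32 was lost without Cre-injected replicate 2 (3.09) and without uninjected replicate 2 (3.32). Notochord markers summed to 8195 and 5525 with Cre and 4932 and 5124 without, but their median log2 fold change was 0.09 and 1 of 5 was called higher. That gene, emilin3a, had 4206 and 2477 with Cre and 1725 and 1876 without (limma adjusted p = 0.0252), and its call was lost without uninjected replicate 1 or 2 (0.78 and 0.90) and with no filter on low values (adjusted p = 0.0642). Endothelium and blood markers summed to 1468 and 1655 with Cre and 1133 and 1050 without, with a median log2 fold change of 0.15 and 2 of 6 called higher. Of these, etv2 stayed called whichever library was left out, and lmo2 lost its call without uninjected replicate 1 (0.74). Sums of muscle and somite markers overlapped between groups (4145 and 3718 with Cre, 3937 and 3896 without), with 1 of 6 called in each direction. Those calls, msgn1 higher and acta1b lower, were lost without uninjected replicate 1 or 2. That of msgn1 was also lost under library-total scaling (limma adjusted p = 0.0549). Germ cell markers overlapped too (77 and 99 with Cre, 101 and 96 without), with 0 of 4 called. No marker in these lists was at 0 in every library. Their part in the differences above was not tested.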

How the data were processed

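RNA of whole embryos (10 ng per library, per the labels' protocols with a stranded low-input total RNA kit and 75-base single-end reads) was measured in 2 Cre-injected and 2 uninjected libraries. The labels do not state that replicates are separate clutches. P-values therefore reflect the spread between these samples alone, possibly a technical one. In the deposited table each library has a score for each gene. Its values look like counts that were scaled library by library and then rounded: no gene has the value 30, 90, 150 or 210 in Cre-injected replicate 1, or 33, 99, 165 or 231 in Cre-injected replicate 2. The submitters' processing notes name STAR 2.6.0c, featureCounts 1.6.0, DESeq2 1.14.1 and GRCz11, among others and without roles. No source used here gives the strand setting.

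Because the values are not raw counts, limma 3.58.1 in R 4.3.3 was run on log2(value + 1). Shrinkage of variances was robust and followed a trend with the mean level. All 16754 genes reaching 10 in at least 2 libraries entered. The procedure was also run on simulated counts that had the same setting of spread for every gene. Such a run cannot show how the calls here depend on single libraries. At totals of 8933474 to 9861419, low genes such as ascl1a have wide intervals. Genes and lists were chosen with earlier results of these data known. In each list up to 3 tested genes with the smallest p were named, except 1 that is not reported here; others are marked. Listed genes were matched by symbol, then by identifier through a name table. Where a symbol had several rows, the row with that name in the table was used. The scaling, the filter, the pseudocount, the threshold and the shrinkage were varied, a replicate block was tried, and each library was left out in turn. Equal totals without mitochondrial genes were added after seeing the data. No sequence tables were used here. Figures were drawn with matplotlib 3.10.9.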

Additional observations from a re-analysis of the deposited data

How the results depend on the processing

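With all 4 libraries, the 3 lower calls among the 9 rows were made under every scaling, pseudocount, shrinkage and filter setting in which the row was tested. A filter of at least 50 left 5 rows, without ascl1a, ascl1b and olig2, and no direction changed under these settings. The weak point is 2 libraries per group. When 1 library is dropped, a gene's own spread comes only from the remaining pair of the other group, shrunk towards the trend over all genes. The lone sample is assumed to vary like that pair. Over such fits the log2 fold change ran from -1.02 to -0.61 for neurog1, from -1.39 to -1.18 for ascl1a, from -0.79 to -0.68 for pax6a and from -0.37 to -0.21 for elavl3. It changed sign for ascl1b (-0.424 to 0.0455), the neighbouring ascl1b row (-0.0241 to 0.391), olig2 (-0.191 to 0.323) and pax6b (-0.0293 to 0.245, and -0.0195 without uninjected replicate 1). Members called lower ranged from 0 to 4. Over all genes 228 to 2064 were called higher, against 1064 with all libraries, and 210 to 1871 lower, against 1037. At an adjusted p under 0.01 these were 412 and 449, with 2 of the rows, and at 0.1 they were 1586 and 1614. Of 22 called genes among the 3 with the smallest p in each list, 21 stayed called without Cre-injected replicate 1, 21 without Cre-injected replicate 2, 3 without uninjected replicate 1 and 2 without uninjected replicate 2.

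The labels do not say that a replicate number marks a shared clutch or batch. The replicate differences of the groups correlated at -0.0314 across genes, though the mitochondrial share was higher in replicate 2 of both groups. With the number as a replicate block, 1132 genes were higher and 1121 lower, and the same 3 rows were called (neurog1 -0.81, ascl1a -1.29, pax6a -0.74). Low depth limits ascl1a, ascl1b and olig2, whose intervals are the widest of the rows.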
